A study of Mus musculus with 12 samples.

Results

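The mitochondrial ribosomal protein genes of mouse embryonic fibroblasts (MEFs) are described here, taken as every gene of the count matrix whose symbol is *Mrps* or *Mrpl* followed by a number and whose mean was at least 10 counts over 12 libraries. The rule found 77 of 24453 genes, 29 with a small subunit symbol (*Mrps*) and 48 with a large subunit symbol (*Mrpl*), and all 77 also passed the filter on low counts that left 14026 genes for testing. No symbol that matched was lost to the count minimum, because the member with the fewest reads, *Mrpl23*, had a mean of 465.2 counts (*Mrpl46* and *Mrpl55* came next), and the highest, *Mrpl54*, had 3572 counts.

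The libraries came from 4 lines with 3 replicates each, all with the *Pnpt1* neo-flox allele on both chromosomes, C57BL6/J background, SV-40 large T immortalisation and medium with 50 µg/mL uridine. TM6 is the parent line, with mtDNA. The rho0 line is a single cell colony of TM6 that lost its mtDNA during 3 weeks in 750 ng/mL ditercalinium, a drug that binds DNA. PKO-1 and PKO-6 are TM6 clones from infection with an adenovirus that expresses Cre, which excises exon 2 of *Pnpt1*, and they also lack mtDNA. Each derived line is 1 clone, so a difference from TM6 cannot be told apart from a difference between clones. The p-values measure the spread between cultures of the same line, estimated over all 4 lines together. 

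The mitochondrial ribosome, or mitoribosome, translates the few proteins that mtDNA encodes, all of them subunits of the respiratory chain and the ATP synthase. Its rRNAs are copied from mtDNA, whereas all of its proteins are encoded in the nucleus, made in the cytosol and imported. The small subunit reads the mRNA, and the large subunit joins amino acids and passes the new chain through a tunnel to the inner membrane. Some of the proteins descend from those of the bacterial ribosome and others are found only in mitochondria. In the absence of mtDNA the proteins have no mitochondrial rRNA to assemble on, and the libraries show the levels of their mRNAs. The question is how these mRNAs, small against large subunit, differed among the 4 lines.

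*Pnpt1* had 2832, 3242 and 3320 normalized counts in the TM6 libraries, 5051, 5251 and 5509 in rho0, 1191, 1253 and 1276 in PKO-1, and 1720, 1897 and 2213 in PKO-6. It was lower in both PKO clones than in TM6 (log2 fold change −1.34 ± 0.0863 and −0.69 ± 0.084, SE) and higher in rho0 (0.75 ± 0.0828), counted over the whole gene and not over the excised exon. No entry of the count matrix lies on mtDNA, so its loss was not checked here. Totals per library were 47164860 to 67991378 counts, and each member had at least 310 counts in every library. The summed level of 9 fibroblast markers was 3024 to 6955 TPM, the authors' measure of RNA per transcript length, against at most 19.97 for 4 epithelial, 6.05 for 3 leukocyte and 0.89 for 3 endothelial markers. Of the fibroblast markers, *Thy1* was at or near 0 in every line (0 to 4.99 normalized counts), and the sum was lower in rho0 (3764 to 3866 TPM) and PKO-6 (3024 to 3344 TPM) than in TM6 (6624 to 6823 TPM). The part of these differences in the results below was not tested.

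By the median over members, the mRNAs of both subunits stayed close to their TM6 level in each derived line. Their summed TPM, given below, was lower in rho0 and PKO-6 than in TM6. To set small against large, each member's log2 CPM, its count scaled to library size, in a library was taken relative to its mean in TM6, and the median over the members of a subunit was read for each library. The small subunit median was −0.0742 ± 0.138 in rho0, 0.141 ± 0.0632 in PKO-1 and, with the least spread, −0.0770 ± 0.0229 in PKO-6 (log2, SD, n = 3), and the large subunit median was −0.0663 ± 0.134, 0.113 ± 0.0658 and −0.0285 ± 0.0762. The rho0 libraries ranged from −0.207 to 0.0692 for the small and from −0.177 to 0.0819 for the large subunit, with replicate 1 highest in both, so rho0 overlapped TM6 (−0.0186 to 0.0315 and −0.0188 to 0.0288). PKO-1 lay above all TM6 libraries for both subunits, at 0.0719 to 0.196 and 0.0370 to 0.157. PKO-6 lay below TM6 for the small subunit, at −0.103 to −0.0611, and overlapped it for the large subunit.

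The medians of the subunits differed little from each other in each line, and a ratio of summed counts was higher in every rho0 and PKO-1 library than in TM6. The small minus large difference was 0.00355 ± 0.00384 in TM6, −0.00789 ± 0.0242 in rho0, 0.0284 ± 0.0274 in PKO-1 and, lowest, −0.0486 ± 0.0869 in PKO-6 (log2, SD, n = 3). Between lines it differed by −0.0114 for rho0 against TM6, 0.0249 for PKO-1 against TM6, −0.0521 for PKO-6 against TM6, 0.0770 for PKO-1 against PKO-6, 0.0363 for PKO-1 against rho0 and −0.0407 for PKO-6 against rho0. In PKO-6 the value rested on a split of the libraries, with replicates 1 and 2 at −0.0957 and −0.102 and replicate 3 at 0.0518. Summed over members, which weights the abundant ones, small subunit mRNAs had 48966 ± 884 normalized counts in TM6, 48546 ± 3589 in rho0, 54007 ± 2584 in PKO-1 and 48638 ± 1720 in PKO-6. Large subunit mRNAs had 89756 ± 1650, 84393 ± 7552, 97106 ± 4254 and 88257 ± 4752. The ratio of these sums, small to large, was 0.544 to 0.549 in TM6, 0.567 to 0.585 in rho0, 0.551 to 0.565 in PKO-1 and 0.542 to 0.564 in PKO-6. In these ratios of counts, rho0 and PKO-1 did not overlap TM6, and PKO-6 did. By this ratio rho0 differed from TM6 by 0.0777 (log2), where the medians differed by −0.0114. On the authors' TPM scale, per length and without TMM, the small subunit sum was 1904 ± 33.4 in TM6, 1666 ± 8.92 in rho0, 1944 ± 59.4 in PKO-1 and 1740 ± 84.0 in PKO-6, and the large subunit sum was 3386 ± 63.2, 2883 ± 60.9, 3353 ± 59.1 and 3034 ± 105. On that scale every rho0 and PKO-6 library was below every TM6 library for both subunits, and PKO-1 overlapped TM6 for both. The ratio of the TPM sums, small to large, was higher in every derived library than in every TM6 library, by the least in PKO-6 replicate 2.

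**Figure D1:**
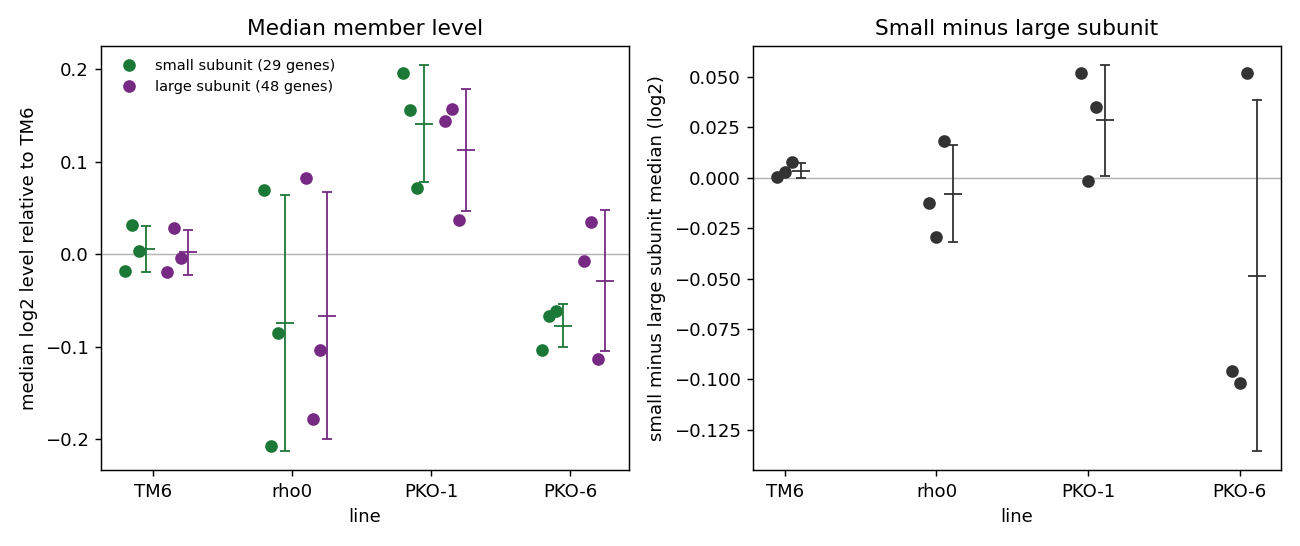
Left, the median over 29 small and 48 large subunit genes of the log2 level relative to the TM6 mean in each of 12 libraries, by line. Right, the difference of these medians. Points are libraries and bars the mean and SD of 3; the PKO-1 points lie above those of TM6 on the left, and on the right the means of the lines lie between −0.0486 and 0.0284.

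Calling a member higher or lower in a comparison required an adjusted p under 0.01 together with a log2 fold change of more than 0.5 in either direction (edgeR's quasi-likelihood test over all 14026 tested genes). Against TM6, 41 of 77 members were called in at least 1 derived line and 36 in none, a share of 53.2% against 60.5% of all tested genes. Of the 41, 31 were called in exactly 1 line (40.3% of members, beside 22.7% of all tested genes), 6 in exactly 2 (7.79% beside 18.4%), 2 higher in all 3 (2.60% beside 8.28%) and 2 lower in all 3 (2.60% beside 9.25%). No member was called higher in 1 line and lower in another, beside 478 of all tested genes, a share of only 3.41%. The 3 comparisons share the TM6 libraries. A call favours groups whose libraries do not overlap, so lack of overlap in a called member, where given below, adds no separate evidence.

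*Mrps9* and *Mrps10* rose in all 3 derived lines, and *Mrps26* and *Mrpl54* fell in all 3. *Mrps9* and *Mrps10* encode small subunit proteins related to bacterial S9 and S10. *Mrps26* and *Mrpl54* encode proteins of the small and large subunit that bacteria lack. Upstream sequence is shown for *Mrps9*, a member that rose in every derived line, and *Mrps26*, a member that fell in every one. *Mrps10* and *Mrpl54* were not among the members with a matched promoter, described below, and are not shown. The sequences are the 150 bases that end just before the start of the gene (RefSeq, GRCm38.p6, forward strand). Capitals mark a match to the ETS motif CCGGAAG or its reverse complement. *Mrps9* lies at chr1:42851083-42851232 and *Mrps26* at chr2:130563607-130563756.
Mrps9: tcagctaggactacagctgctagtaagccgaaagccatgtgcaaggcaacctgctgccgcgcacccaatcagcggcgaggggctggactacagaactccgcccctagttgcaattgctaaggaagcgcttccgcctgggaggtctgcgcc
Mrps26: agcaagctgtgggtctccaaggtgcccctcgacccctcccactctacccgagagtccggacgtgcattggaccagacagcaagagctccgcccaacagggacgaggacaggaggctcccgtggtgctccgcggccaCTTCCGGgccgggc

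*Mrps9* (mm10 chromosome 1, 42851233 to 42905683, 11 exons) had 1279, 1413 and 1390 normalized counts in TM6 replicates 1 to 3. It had 2210, 2041 and 2078 in rho0, 2355, 2285 and 2065 in PKO-1, and 2126, 2103 and 2275 in PKO-6. All 9 derived libraries were above the highest TM6 library. The log2 fold changes were 0.63 ± 0.0629 in rho0 (SE, adjusted p = 7.29e-07), 0.72 ± 0.0629 in PKO-1 (adjusted p = 2.84e-07) and 0.67 ± 0.0627 in PKO-6 (adjusted p = 3.64e-07).

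*Mrps10* (chromosome 17, 47368887 to 47378679, 7 exons) had 1348, 1491 and 1413 normalized counts in the TM6 libraries, 2679, 2424 and 2525 in rho0, 2133, 2187 and 1858 in PKO-1, and 2208, 2183 and 2267 in PKO-6. It was the member that rose most in rho0. The log2 fold changes were 0.84 ± 0.0658 (adjusted p = 6.3e-08), 0.54 ± 0.066 (adjusted p = 7.41e-06) and 0.65 ± 0.0657 (adjusted p = 8.68e-07). The PKO-1 call was lost without TM6 replicate 1 (0.47) or PKO-1 replicate 2 (0.50, below the fold threshold).

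*Mrps26* (chromosome 2, 130563757 to 130565394, 4 exons) had 2000, 1986 and 1950 normalized counts in the TM6 libraries, 1309, 1055 and 1120 in rho0, 1274, 1288 and 1230 in PKO-1, and 1077, 1162 and 996 in PKO-6. TM6 stood apart from all 9 derived libraries, of which rho0 replicate 1 was the highest. The log2 fold changes were −0.77 ± 0.0763 (adjusted p = 7.38e-07), −0.65 ± 0.0761 (adjusted p = 4.98e-06) and −0.88 ± 0.0763 (adjusted p = 1.76e-07).

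*Mrpl54* (chromosome 10, 81264722 to 81266926, 3 exons) had 4488, 4738 and 4784 normalized counts in the TM6 libraries, 3432, 2868 and 3092 in rho0, 3346, 3465 and 3090 in PKO-1, and 2927, 3361 and 3056 in PKO-6. It was the member with the most RNA per length and it too had no derived library inside the TM6 range. The log2 fold changes were −0.58 ± 0.0719 (adjusted p = 7.02e-06), −0.50 ± 0.0718 (adjusted p = 3.26e-05) and −0.58 ± 0.0718 (adjusted p = 5.81e-06). In PKO-1 it passed the fold threshold by less than 0.01 and was below it without replicate 2 (−0.49) or 3 (−0.48) of TM6, replicate 3 of PKO-6 (−0.50) or replicate 3 of PKO-1 (−0.45).

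**Figure D2:**
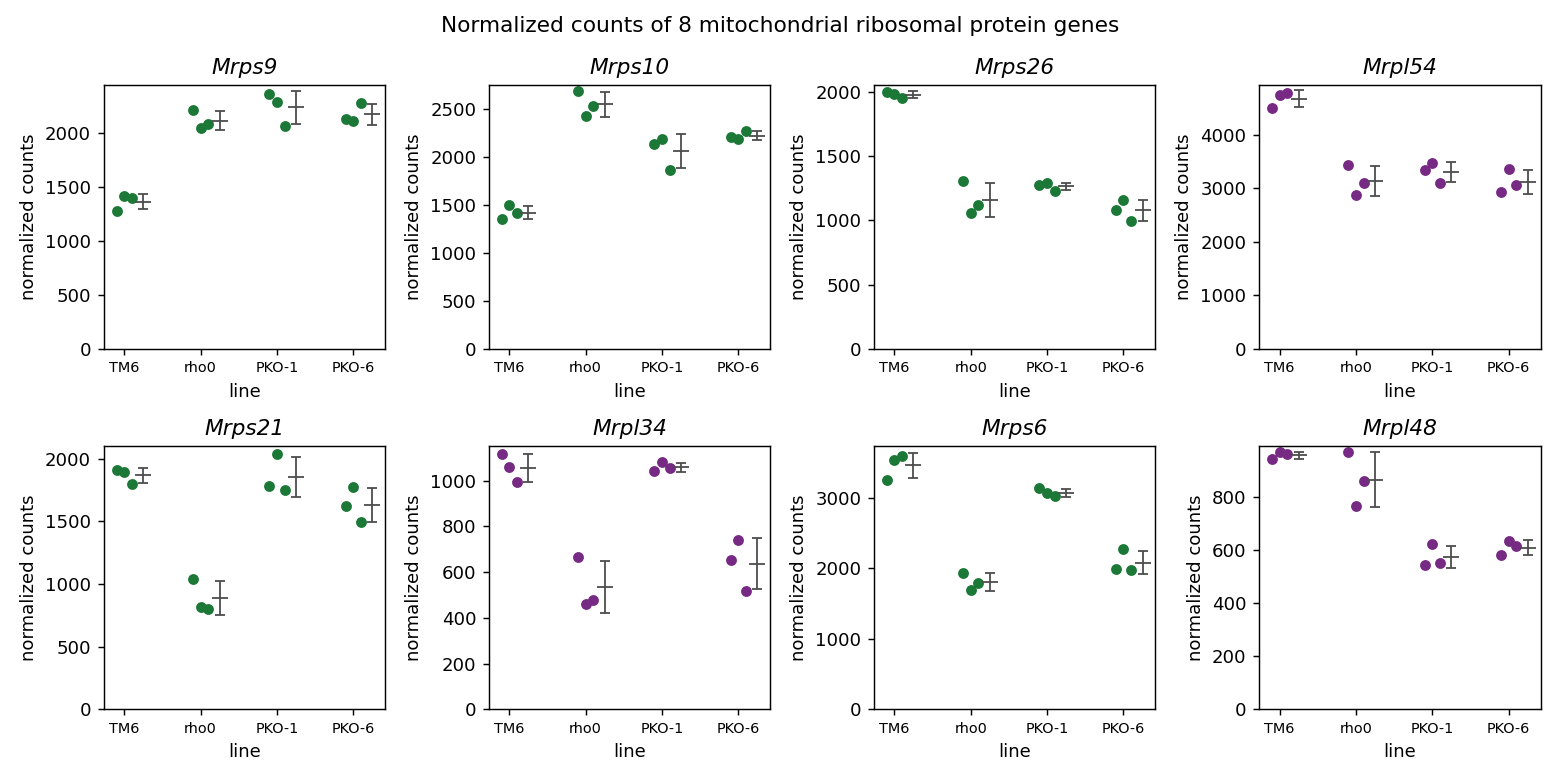
Normalized counts per library of 8 members in TM6, rho0, PKO-1 and PKO-6, with the mean and SD of 3 libraries beside the points and axes from 0. The upper row holds the 4 members called in all 3 derived lines, and the lower row *Mrps21*, *Mrpl34*, *Mrps6* and *Mrpl48*, each called against TM6 in 1 or 2 lines; *Mrpl34* and *Mrps6* are low in rho0 and PKO-6, *Mrps21* in rho0 and *Mrpl48* in both PKO clones.

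In rho0 against TM6, 6 members rose and 15 fell, 7.79% and 19.5% of the 77, beside 20.7% and 21.4% of all tested genes. The small subunit had 2 called higher and 4 lower of 29, and the large subunit 4 higher and 11 lower of 48. The medians of the log2 fold changes were −0.03 and −0.06, beside 0.02 over all tested genes. *Mrps21*, related to bacterial S21, fell most. Its normalized counts were 1907, 1896 and 1798 in TM6 and 1044, 820 and 797 in rho0, a log2 fold change of −1.07 ± 0.0989 (adjusted p = 3.57e-07). *Mrpl34*, related to bacterial L34, had 1116, 1059 and 992 in TM6 and 664, 461 and 480 in rho0 (−0.98 ± 0.137, adjusted p = 2.17e-05). These groups did not overlap, and the spread within rho0 came from replicate 1, which was nearest to TM6 for both. *Mrps6*, related to bacterial S6, had 3256, 3533 and 3590 in TM6 and 1939, 1692 and 1789 in rho0 (−0.94 ± 0.0667, adjusted p = 2.47e-08). *Mrpl18*, of the central protuberance, had 3278, 3647 and 3521 in TM6 and 2052, 1840 and 1873 in rho0 (−0.86 ± 0.0639, adjusted p = 3.99e-08). *Mrpl22*, which lines the exit tunnel, changed by nearly as much (−0.85 ± 0.0835). The other members that fell were *Mrpl20*, *Mrpl14*, *Mrps12* of the decoding centre, *Mrpl41*, *Mrpl33*, *Mrpl51*, *Mrpl42* and *Mrpl49*, besides *Mrps26* and *Mrpl54*, with log2 fold changes of −0.66 to −0.52 for these 8. Besides *Mrps10* and *Mrps9*, *Mrpl38* of the central protuberance (0.70 ± 0.0782, adjusted p = 2.53e-06) and *Mrpl23* at the tunnel exit (0.69 ± 0.0951, adjusted p = 1.85e-05) led those that rose. *Mrpl38* went from 2303, 2415 and 2272 normalized counts in TM6 to 4173, 3460 and 3684 in rho0, and *Mrpl23* from 318, 357 and 309 to 585, 492 and 510. *Mrpl24* (0.59 ± 0.0564) and *Mrpl35* (0.56 ± 0.0562) rose as well. *Mrpl35* was below the fold threshold without rho0 replicate 1 (0.50), and *Mrpl42* without TM6 replicate 2 (−0.49) or rho0 replicate 2 (−0.47).

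In PKO-1 against TM6, 11 members rose and 8 fell, 14.3% and 10.4%, beside 16.4% and 17.9% of all tested genes. These counts were 7 and 8 without TM6 replicate 1, 12 and 5 without TM6 replicate 2, 10 and 5 without TM6 replicate 3, and 14 and 4 without PKO-1 replicate 3. The small subunit had 5 higher and 2 lower, and the large subunit 6 higher and 6 lower. The medians were 0.14 and 0.12, beside 0.00 over all tested genes, and 51 of 77 members had a positive log2 fold change. *Mrpl23* rose most, from 318, 357 and 309 normalized counts in TM6 to 615, 558 and 526 in PKO-1 (0.79 ± 0.0951, adjusted p = 6.49e-06). After *Mrps9* came *Mrpl39*, a large subunit protein without a relative in the bacterial ribosome, at 1888, 2088 and 2162 in TM6 and 3262, 3353 and 2996 in PKO-1 (0.65 ± 0.0654, adjusted p = 1.15e-06). *Mrpl45*, which holds the large subunit to the inner membrane at the tunnel exit, had 2425, 2451 and 2386 in TM6 and 3797, 3897 and 3463 in PKO-1 (0.62 ± 0.0661, adjusted p = 1.96e-06). None of these ranges overlapped. *Mrpl48*, of the central protuberance, fell most, from 944, 970 and 961 to 546, 622 and 553 (−0.74 ± 0.0881, adjusted p = 5.67e-06). *Mrpl4*, which lines the tunnel, had 1898, 1902 and 1892 in TM6 and 1182, 1177 and 1170 in PKO-1 (−0.69 ± 0.094, adjusted p = 2.02e-05). *Mrpl36*, related to bacterial L36, had 1042, 1042 and 907 in TM6 and 630, 702 and 662 in PKO-1 (−0.59 ± 0.101, adjusted p = 0.000166). The libraries of TM6 and PKO-1 did not overlap for these 3 either. *Mrps33*, *Mrpl19*, *Mrpl2*, *Mrpl21*, *Mrps25* and *Mrps14* also rose (0.50 to 0.60), and *Mrpl32*, *Mrpl3* and *Mrps28* also fell (−0.52 to −0.50). Of these, the calls of *Mrps14* and *Mrps25* were lost in 14 and 13 of 19 alternative settings. Both were at 0.48 with DESeq2 size factors, with DESeq2's Wald test and with only the 2 lines compared. They were at 0.47 when any single rho0 library, which is in neither group, was left out. *Mrpl21* was at 0.46 without TM6 replicate 1. *Mrpl32* was at −0.45 without TM6 replicate 3, *Mrpl3* at −0.48 without TM6 replicate 2, and all 3 that fell were at −0.48 to −0.46 without PKO-1 replicate 3, below the fold threshold. After the median of each chromosome was removed, 6 of the 19 calls remained and none was added: *Mrps9*, *Mrpl45*, *Mrpl23*, *Mrps26*, *Mrpl48* and *Mrps28*. Without that removal, *Mrps28* was also below the fold threshold without TM6 replicate 2 (−0.49), TM6 replicate 3 (−0.49) or PKO-1 replicate 1 (−0.48).

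In PKO-6 against TM6, 5 members rose and 10 fell, 6.49% and 12.99%, beside 21.9% and 19.4% of all tested genes. Without TM6 replicate 1 they were 3 and 11, and without PKO-6 replicate 2 they were 4 and 15. The small subunit had 4 higher and 3 lower of 29, and the large subunit 1 higher and 7 lower of 48. Among these small subunit symbols are *Mrps18a*, whose protein is found in the large subunit, and *Mrps36*, which encodes a subunit of another complex. The medians were −0.08 and −0.04, beside 0.01 over all tested genes. *Mrps18b*, a paralog of the bacterial S18 family, stood at 2207, 2233 and 2267 normalized counts in TM6 against 3333, 3505 and 3342 in PKO-6 (0.60 ± 0.0568, adjusted p = 4.08e-07). *Mrpl11*, at the base of the stalk where factors bind, had 1522, 1705 and 1708 in TM6 and 2384, 2361 and 2474 in PKO-6 (0.55 ± 0.074, adjusted p = 1.44e-05). After *Mrps26*, *Mrps6* fell from 3256, 3533 and 3590 to 1991, 2272 and 1977 (−0.73 ± 0.0661, adjusted p = 2.5e-07). *Mrpl34* fell from 1116, 1059 and 992 to 653, 740 and 520 (−0.73 ± 0.135, adjusted p = 0.000265). *Mrpl48* fell from 944, 970 and 961 to 581, 634 and 617 (−0.65 ± 0.0873, adjusted p = 1.37e-05), and in rho0 it had 972, 766 and 862, a range that overlapped TM6. *Mrpl14* and *Mrpl41* fell by 0.64 and 0.62 on the log2 scale, close to their changes in rho0 (−0.64 and −0.60), and *Mrpl27*, near the site where peptide bonds form, and *Mrpl57* were at −0.57 and −0.50. *Mrpl11* was below the fold threshold without TM6 replicate 1 (0.46), *Mrps18a* without TM6 replicate 1 (0.48) or PKO-6 replicate 2 (0.48), and *Mrpl57* without TM6 replicate 2 (−0.49) or PKO-6 replicate 3 (−0.40).

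**Figure D3:**
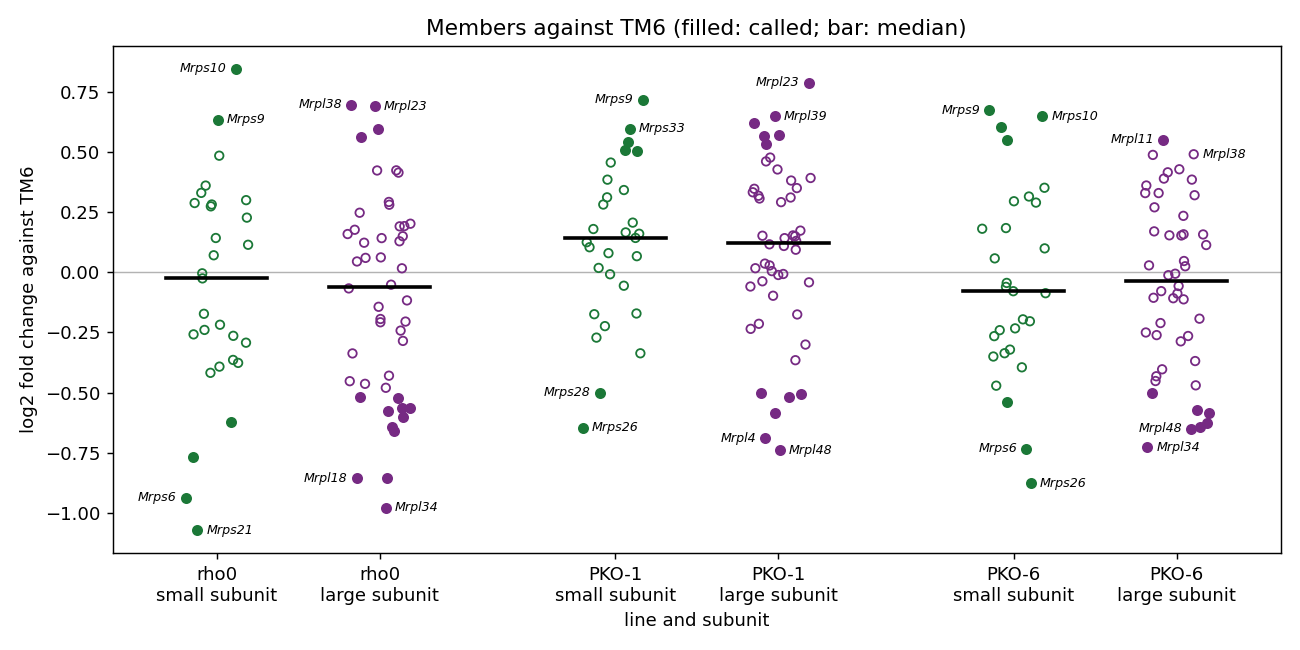
Log2 fold change against TM6 of each member in rho0, PKO-1 and PKO-6, by subunit (29 small, 48 large). Filled points were called, open points were not, and bars are medians, which lie between −0.08 and 0.14.

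The clones were compared directly, which also tests whether their changes against TM6 differ. In PKO-1 against PKO-6, 6 members were higher and 1 lower, beside 11.5% and 17.6% of all tested genes, so 9.09% of the members were called. *Mrpl34* stood at 1043, 1081 and 1054 normalized counts in PKO-1 and 653, 740 and 520 in PKO-6 (0.73 ± 0.136, adjusted p = 0.000356). *Mrpl33* stood at 2413, 2525 and 2292 against 1539, 1555 and 1383 (0.69 ± 0.0731, adjusted p = 2.08e-06), *Mrpl57* at 1101, 1207 and 1067 against 726, 786 and 602, and *Mrps25* at 3969, 4029 and 3888 against 2619, 2634 and 2673 (0.58 ± 0.047, adjusted p = 1.4e-07). *Mrps6* (0.56) and *Mrps16* (0.52) were also higher in PKO-1, and *Mrpl36* was lower, at 630, 702 and 662 against 1009, 1100 and 858 (−0.57 ± 0.101, adjusted p = 0.00023). None of these 7 overlapped between the clones, and neither did 46 of all 77 members. The share of all tested genes without overlap was not determined. Without PKO-1 replicate 3, 10 were higher and 1 lower, and without PKO-6 replicate 2, 8 were higher and 0 lower. *Mrpl36* was below the threshold without PKO-6 replicate 2 (−0.49), and *Mrps16* without PKO-1 replicate 2 (0.46) or PKO-6 replicate 3 (0.43). With chromosome medians removed 3 members were called, 2 of them among these 7.

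Against rho0, PKO-1 had 11 members higher and 4 lower, beside 15.1% and 17.6% of all tested genes, and its medians were 0.15 for the small and 0.22 for the large subunit. Without rho0 replicate 1, 17 were higher and 4 lower. *Mrps21* led them (1.06 ± 0.0993, adjusted p = 6.3e-07), at 1780, 2040 and 1748 normalized counts in PKO-1, a range that overlapped TM6, against 1044, 820 and 797 in rho0. *Mrpl33* (0.99 ± 0.0741), *Mrpl34* (0.98 ± 0.138) and *Mrpl18* (0.88 ± 0.0641) followed. *Mrpl22*, *Mrps12*, *Mrps6*, *Mrps18c*, *Mrpl51*, *Mrpl28* and *Mrpl49* were at 0.79 to 0.51, and without rho0 replicate 2 *Mrpl28* (0.49) and *Mrpl49* (0.48) were below the threshold. *Mrpl32* (−0.67 ± 0.0999), *Mrpl4* (−0.62 ± 0.0943), *Mrpl48* (−0.60 ± 0.0884) and *Mrps22* (−0.51 ± 0.0605) were lower, and *Mrps22* was below the threshold without PKO-1 replicate 3 (−0.46). PKO-6 had 3 members higher than rho0 and 2 lower, beside 13.3% and 8.15% of all tested genes. The counts were 7 and 0 without rho0 replicate 1, 2 and 2 without rho0 replicate 2, 3 and 1 without PKO-6 replicate 1, and 5 and 1 without PKO-6 replicate 3. *Mrps21* was higher (0.88 ± 0.099, adjusted p = 6.71e-06), at 1623, 1771 and 1497 in PKO-6, and *Mrpl22* was higher (0.66 ± 0.0837, adjusted p = 1.91e-05), at 920, 987 and 928 in PKO-6 against 668, 532 and 591 in rho0. The other 3 calls depended on a library: *Mrpl13* (0.54, or 0.45 without rho0 replicate 2), *Mrpl57* (−0.52, or −0.41 without rho0 replicate 1 and −0.42 without PKO-6 replicate 3) and *Mrpl48* (−0.51, or −0.44 without rho0 replicate 1 and −0.48 without PKO-6 replicate 1).

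In rho0 the shorter members tended to be lower and the longer ones higher than in TM6. Members code for 198 to 1329 bases (median 579). Of 23 members with under 450 coding bases, 1 rose and 10 fell in rho0 (median log2 fold change −0.45), and of 15 with 900 or more, 2 rose and none fell (0.28). The 17 members of at least 450 and under 600 bases and the 22 of at least 600 and under 900 lay between, at −0.21 and −0.11. The order held in each subunit, from −0.36 to 0.27 in the small and from −0.50 to 0.35 in the large. Over 13158 tested genes with a coding sequence the medians of the same bins also climbed, from −0.21 over −0.12 and −0.04 to 0.02. Of 895 under 450 bases, 149 were higher and 257 lower, and of 9634 with 900 or more, 2061 and 2047. Across the 77 members, Spearman's rho between coding length and the log2 fold change was 0.52 in rho0, 0.37 in PKO-6 and 0.13 in PKO-1, beside 0.06, 0.02 and 0.01 across all tested genes. The members and all tested genes cover unlike lengths. Of the 13158 genes 9634 had 900 or more coding bases, beside 15 of the 77 members, which limits the comparison of their rho values. These values describe genes measured in the same libraries, which are not independent, and the 3 comparisons share TM6. In single libraries, with each gene relative to its mean over all 12, rho was 0.45 to 0.56 in rho0, 0.16 to 0.26 in PKO-6, −0.37 to −0.19 in PKO-1 and −0.42 to −0.35 in TM6, so all libraries of a line had the same sign. Across all tested genes, rho0 replicates 2 and 3 were at 0.13 and 0.11 and replicate 1 at −0.03, although the members of replicate 1 were at 0.45. The part of transcript length in counting or RNA recovery was not tested. In PKO-6, none of the 23 shortest rose and 8 fell (median −0.20), and 1 of the 15 longest rose and none fell (0.29), beside 145 and 183 of the 895 shortest and 2215 and 1965 of the 9634 longest tested genes. In PKO-1, 3 of the shortest rose and 2 fell (0.11), and 4 of the longest rose and 1 fell (0.31), beside 124 and 131 of the 895 and 1631 and 1845 of the 9634.

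**Figure D4:**
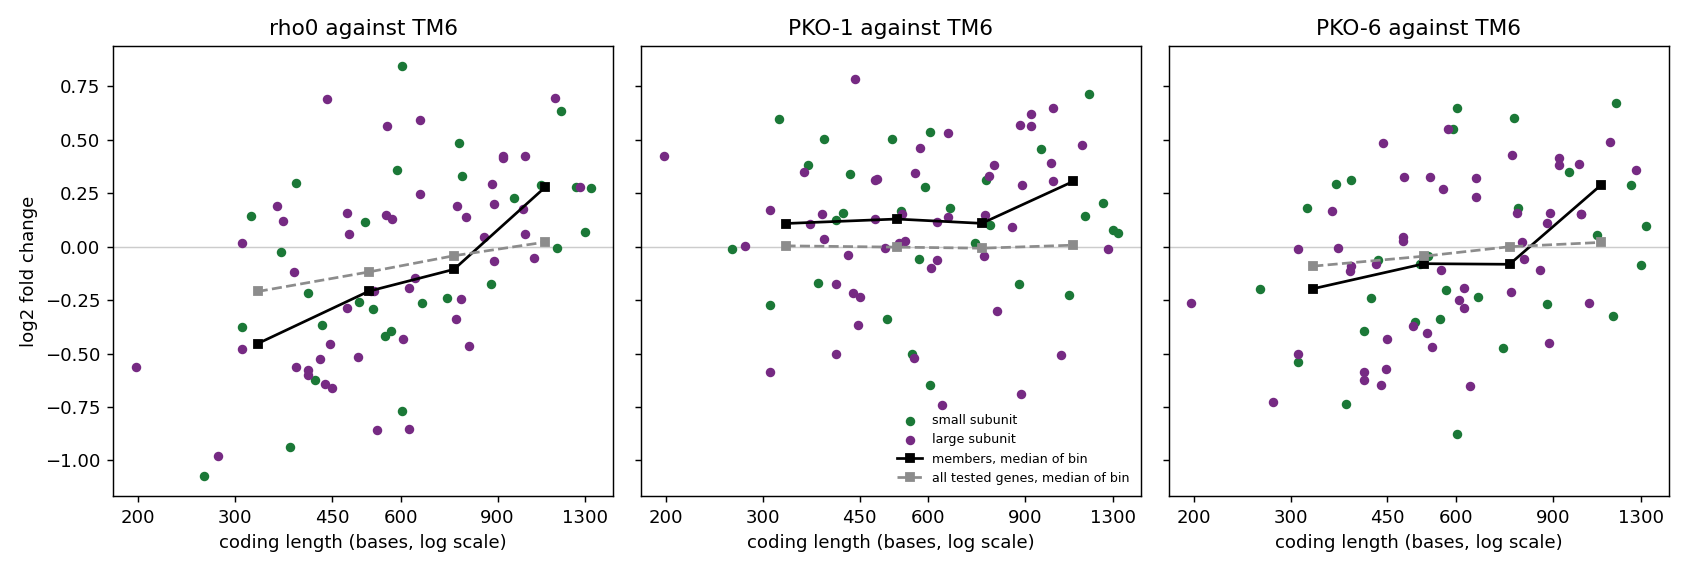
Log2 fold change against TM6 of 77 members by coding length (bases, log scale) in rho0, PKO-1 and PKO-6. Squares are medians of 4 length bins, black for members and grey for all tested genes; in rho0 the members' medians climb from −0.45 to 0.28.

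The members lie on 17 chromosomes and none is on chromosome 12, 18 or X. Several members moved with the median of all tested genes on their chromosome. In PKO-1 the median of chromosome 9 was −0.39, and its 3 members had log2 fold changes of −0.69 (*Mrpl4*), −0.51 (*Mrpl3*) and −0.22 (*Mrps22*). Relative to that median they were at −0.30, −0.12 and 0.17, and none was called. In PKO-1 the median of chromosome 13 was −0.27, and *Mrpl36* and *Mrpl32* were at −0.31 and −0.25 relative to it. In PKO-6 the median of chromosome 8 was −0.43, and *Mrpl34* was at −0.30 relative to it, not called. Chromosome 17, with 8 members, had medians of 0.25, 0.20 and 0.19 in rho0, PKO-1 and PKO-6. Relative to these, *Mrps10* was at 0.59, 0.34 and 0.45 and was called only in rho0. *Mrps9*, on chromosome 1, was at 0.52, 0.53 and 0.46 and was called in rho0 and PKO-1. *Mrps26*, on chromosome 2, was at −0.73, −0.56 and −0.78 and was called in all 3 lines. *Mrpl54*, on chromosome 10, was called only in PKO-6 (−0.60). *Mrpl48*, on chromosome 7, was at −0.86 in PKO-1 and −0.62 in PKO-6 and was called in both. In all, 17 of 21 calls in rho0, 6 of 19 in PKO-1 and 9 of 15 in PKO-6 remained. Copy number was not measured, and its part in these values was not tested.

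**Figure D5:**
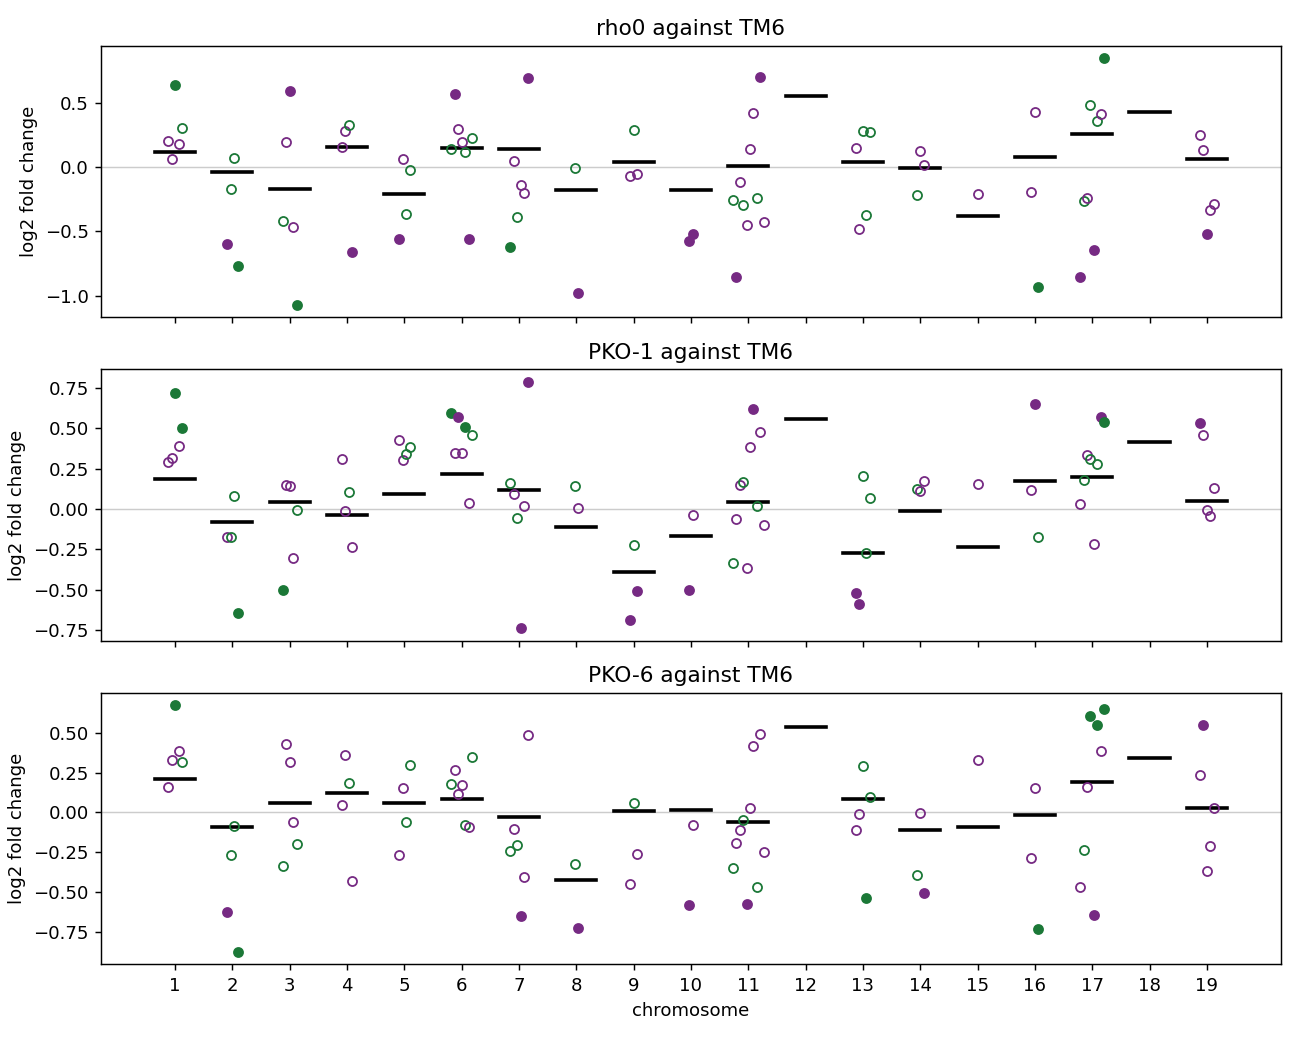
Log2 fold change against TM6 of the members (points, green for small and purple for large subunit, filled where called) by chromosome, with the median of all tested genes on that chromosome as a bar. On chromosome 9 in PKO-1 and on chromosome 8 in PKO-6 the bars lie at −0.39 and −0.43.

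By descent, 48 members have a relative among the proteins of the bacterial ribosome and 29 do not. Of the former, 5 rose and 9 fell in rho0 (median −0.15), 7 and 5 in PKO-1 (0.13) and 5 and 4 in PKO-6 (−0.07). Of the other 29, 1 rose and 6 fell in rho0 (0.04), 4 and 3 in PKO-1 (0.13) and none and 6 in PKO-6 (−0.04). They include *Mrps36*, 1 of the 6 that fell in PKO-6, which encodes a subunit of another complex. Over all tested genes the shares called higher and lower were 20.7% and 21.4% in rho0, 16.4% and 17.9% in PKO-1, and 21.9% and 19.4% in PKO-6, and the difference between the classes was not tested.

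The small subunit symbols include some whose proteins sit elsewhere. *Mrps18a*, *Mrps18b* and *Mrps18c* are paralogs related to bacterial S18, and the protein of *Mrps18a* is found in the large subunit. *Mrps18a* stood at 1811, 1930 and 1933 normalized counts in TM6 against 2760, 2911 and 2631 in PKO-6 (0.55 ± 0.0711, adjusted p = 9.76e-06), with 0.36 in rho0 and 0.28 in PKO-1, neither called. *Mrps18b* had 0.48 in rho0 and 0.31 in PKO-1, not called. *Mrps18c* was at −0.36 in rho0, not called, with 893 to 1123 normalized counts against 1169 to 1330 in TM6 and 1408 to 1717 in PKO-1, and it was called between PKO-1 and rho0 (0.71 ± 0.0936, adjusted p = 1.87e-05). *Mrps30*, also a large subunit protein, was not called in any comparison (0.27 in rho0, 0.07 in PKO-1 and 0.10 in PKO-6). *Mrps36*, which encodes a subunit of the oxoglutarate dehydrogenase complex, was called in PKO-6 (−0.54 ± 0.0717, adjusted p = 1.3e-05), with 900, 1014 and 916 normalized counts against 1323, 1402 and 1381 in TM6. With these genes placed by structure and 6 mitoribosomal proteins with other symbols added, the small minus large difference of PKO-1 against TM6 was 0.0520 in place of 0.0249.

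Levels between genes were compared per length, as TPM averaged over 12 libraries. They spanned 6.74 (*Mrpl17*) to 261 (*Mrpl54*), with medians of 50.2 for the small and 51.4 for the large subunit. The highest of the small subunit were *Mrps21* (206 TPM), *Mrps6* (129) and *Mrps18c* (117), and the lowest *Mrps25* (15.6), *Mrps31* (17.2) and *Mrps11* (21.2). The highest of the large subunit after *Mrpl54* were *Mrpl42* (189) and *Mrpl52* (183), and the lowest after *Mrpl17* were *Mrpl41* (8.24) and *Mrpl57* (13.2). *Mrps21* was at 254 TPM in TM6, 117 in rho0, 242 in PKO-1 and 210 in PKO-6. *Mrpl52*, a large subunit protein that bacteria lack, varied least, with no log2 fold change beyond 0.13 in any of the 6 comparisons and 1285 to 1437 normalized counts in TM6, 1242 to 1799 in rho0, 1339 to 1606 in PKO-1 and 1203 to 1461 in PKO-6. In all, 31 members were called in none of the 6 comparisons. The share of all tested genes called in none of the 6 was not determined, so this count does not show that members were steadier than other genes.

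Genes that build and run the mitoribosome, from lists apart from the members, included some called in all 3 lines. Of 27 genes for its assembly and rRNA modification, 8 rose and 3 fell in rho0, 6 and 2 in PKO-1, and 5 and 2 in PKO-6, with medians of 0.23, 0.11 and 0.17. These are 29.6% and 11.1%, 22.2% and 7.41%, and 18.5% and 7.41% of the list, beside 20.7% and 21.4%, 16.4% and 17.9%, and 21.9% and 19.4% of all tested genes. *Fastkd2*, which stabilises the large subunit rRNA, had 1083, 1166 and 1118 normalized counts in the TM6 libraries, 1699, 1786 and 1778 in rho0, 1902, 1876 and 1824 in PKO-1, and 2158, 2330 and 2333 in PKO-6 (1.02 ± 0.0512 in PKO-6, adjusted p = 5.92e-10). *Tfb1m*, which methylates the small subunit rRNA, rose by 0.74, 0.94 and 0.55, and *Ngrn*, *Mtg1* and *Mettl17* also rose in all 3 lines. *Mpv17l2*, an inner membrane protein of large subunit assembly, fell from 751, 756 and 723 normalized counts in TM6 to 365, 258 and 275 in rho0, 338, 359 and 323 in PKO-1, and 326, 368 and 241 in PKO-6 (−1.31 ± 0.146, −1.13 ± 0.145 and −1.25 ± 0.145). Of 17 translation factors, 2 rose and 2 fell in rho0, 4 and 2 in PKO-1, and 1 and 1 in PKO-6, or 11.8% and 11.8%, 23.5% and 11.8%, and 5.88% and 5.88%. *Mtif2*, an initiation factor, rose in all 3 (0.55, 0.85 and 0.54). *Mtif3*, another initiation factor, did not, with a mean of 932 normalized counts in TM6, 649 in rho0, 819 in PKO-1 and 903 in PKO-6. *Mtrf1*, a release factor, had 129, 129 and 121 counts in TM6 and 2, 3 and 1 in rho0, 7, 3 and 9 in PKO-1, and 2, 2 and 0 in PKO-6, as counted before scaling. Of 6 mitoribosomal proteins with other symbols, *Ptcd3* of the small subunit rose in PKO-1 (0.63 ± 0.0508) and *Gadd45gip1* of the large subunit fell in PKO-6 (−0.73 ± 0.0683), and none was called in rho0. 

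Of 83 tested cytosolic ribosomal protein genes, 19 were higher and 5 lower in rho0 (median 0.22), 5 and 5 in PKO-1 (0.10), and 7 and 6 in PKO-6 (0.04), or 22.9% and 6.02%, 6.02% and 6.02%, and 8.43% and 7.23%. Pseudogene copies can share reads with these genes, and their values are uncertain. Of 36 nuclear complex I subunits, 1 was higher and 6 lower in rho0 (−0.18), 1 and 2 in PKO-1 (0.04), and 1 and 6 in PKO-6 (−0.12), or 2.78% and 16.7%, 2.78% and 5.56%, and 2.78% and 16.7%. Over all tested genes 20.7% were higher and 21.4% lower in rho0, 16.4% and 17.9% in PKO-1, and 21.9% and 19.4% in PKO-6. The differences between these lists and the members were not tested.

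Promoters of 300 bases, 250 before and 50 after a RefSeq start within 100 bases of the start of the most abundant transcript, were matched for 65 members and 9984 tested genes in all. The ETS motif, CCGGAAG on either strand, was found in 24 of 65 member promoters (36.9%) beside 18.4% of all. The NRF1 motif GCGCATGCG was in 7 (10.8%) beside 3.75%, and the YY1 motif AANATGGCG in 10 (15.4%) beside 5.32%. The E-box CACGTG was in 4 (6.15%) beside 10.3%, and the ATF4-CEBP motif TTGCATCA in none beside 0.571%. Of the small subunit promoters 41.7% held the ETS motif, and of the large subunit promoters 34.1%. *Mrps26* had a match 14 to 8 bases before its start, and *Mrps9* had no match to any of the 5 motifs. A match shows only that these letters are in the window.

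Exons of 10 members overlap another gene. *Mrpl19*, *Mrpl24*, *Mrpl41*, *Mrpl48*, *Mrpl49*, *Mrps25* and *Mrps27* overlap a gene on the opposite strand, and *Mrpl53*, *Mrps23* and *Mrps6* one on the same strand. The options of the counting step are not given in the sources used here, and if strand was not used, reads in the shared bases, 3536 in *Mrps25* with *Nr2c2* and 1002 in *Mrpl41* with *Dph7*, could belong to either gene. The values of these 10 members are uncertain to that extent. For 67 members the annotation has 1 transcript. *Mrps10* has 3, and the most abundant held 51.5% ± 3.14 of its counts in TM6, 49.3% ± 3.43 in rho0, 55.8% ± 2.11 in PKO-1 and 53.3% ± 1.61 in PKO-6.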

How the data were processed

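RNA-seq of 12 libraries, 3 per line, was used. The deposited values are expected counts, which the authors estimated with RSEM 1.2.25 and bowtie2 on RefSeq transcripts of mm10 (GRCm38) after merging technical duplicates of stranded, rRNA-depleted, paired-end libraries, and collapsed to genes; the deposited transcript files also hold TPM. No label says which RNA extraction kit, of 2 named, served which sample. Counts were rounded (12.5% of values had decimals). Totals were 47164860 to 67991378 counts, of which *Rn45s* held 12.2% to 19.6%.

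Genes were filtered with filterByExpr (minimum count 10), scaled by TMM and tested with the quasi-likelihood test of edgeR 4.0.16 (R 4.3.3) in 1 fit of 4 lines, with Benjamini-Hochberg adjustment over 14026 genes. A call needed an adjusted p under 0.01 together with a log2 fold change of more than 0.5 in either direction. The standard error is the log2 fold change divided by the square root of F. Normalized counts are counts divided by a library's TMM-scaled size relative to the mean library, and log2 CPM used a prior count of 2. TPM was summed over a gene's transcripts. Coding length is that of the most abundant transcript. The script was tested on simulated data. Alternatives were DESeq2 1.42.0 (size factors or Wald test), no filter, a replicate block, the compared lines alone, removal of chromosome medians, pooled clones, another threshold, other ways to set small against large subunit, and the omission of each library.

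Named genes were *Pnpt1*, in each comparison the 4 highest and 4 lowest called members, members called in all 3 derived lines, the 3 highest and lowest per subunit by TPM, the *Mrps18* paralogs, *Mrps30*, *Mrps36*, and the pathway genes with the largest changes. Others named were chosen after their values were seen, and not every gene the rule admits has its values printed. Members and lists were chosen with earlier results of these data known.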

Additional observations from a re-analysis of the deposited data

Results flagged for a closer look

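The changes of 7 members against TM6 differed between the PKO clones by the direct test of PKO-1 against PKO-6 (edgeR, adjusted over 14026 genes). The log2 differences, PKO-1 minus PKO-6, were 0.73 for *Mrpl34*, 0.69 for *Mrpl33*, 0.68 for *Mrpl57*, 0.58 for *Mrps25*, 0.56 for *Mrps6*, 0.52 for *Mrps16* and −0.57 for *Mrpl36*. Adjusted p ranged from 1.4e-07 (*Mrps25*) to 0.00117 (*Mrps16*). The 3 libraries of each clone did not overlap for any of them, as for 46 of all 77 members. With chromosome medians removed, the differences of *Mrpl57* and *Mrpl33* were still called, and those of the other 5 were not.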

How the results depend on the processing

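No call of a member reversed. Of 82 calls of a member in a comparison, 79 were kept with DESeq2 size factors, with DESeq2's Wald test and without the filter, 78 in fits of the compared lines alone, 76 to 79 without any single library, 47 with chromosome medians removed, and 23 of 54 with pooled clones. Removal of chromosome medians gave 6 members in place of 19 in PKO-1 against TM6 and 3 in place of 7 in PKO-1 against PKO-6. Pooled clones gave 9 against TM6 in place of 19 and 15, and 6 against rho0 in place of 15 for PKO-1, while the biological coefficient of variation was 0.248 in place of 0.0837. At an adjusted p below 0.05 and any fold, 56 members passed in rho0, 47 in PKO-1 and 53 in PKO-6 against TM6, 45 in PKO-1 against PKO-6, and 54 and 42 in PKO-1 and PKO-6 against rho0. The share of all tested genes at this looser threshold was not determined, so these 6 counts do not show a change particular to the members. Without single libraries the counts were 20 to 25 of 21, 15 to 18 of 19, 14 to 19 of 15, 7 to 11 of 7, 14 to 21 of 15 and 4 to 7 of 5, in the order rho0, PKO-1 and PKO-6 against TM6, PKO-1 against PKO-6, and PKO-1 and PKO-6 against rho0. The cause of these changes was not tested.

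Replicate numbers do not pair the libraries: same-numbered libraries had correlations as low as −0.38, and 4 of 12 correlated best with their own number. The replicate block kept all 82 calls, with the difference between subunits at −0.0114 (rho0) and 0.0249 (PKO-1), as without it. The difference could not change, because it comes from library medians of log2 CPM, which the block does not enter. Its equality is therefore no test of the block, and only the calls were tested.

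Some settings moved the small minus large difference by more than the replicate spread. As summed counts it was 0.0777 in rho0 and 0.0154 in PKO-6 against TM6, 0.0122 in PKO-1 against PKO-6 and −0.0500 in PKO-1 against rho0. With chromosome medians removed it was 0.0632, 0.0446 and 0.0190 in rho0, PKO-1 and PKO-6 against TM6 and −0.0186 in PKO-1 against rho0. By structure it was 0.0520 in PKO-1 against TM6. Without single libraries it moved beyond that spread in rho0 against TM6 (−0.0370 to 0.0266) and in PKO-1 against rho0 (0.00122 to 0.0734), and stayed within it elsewhere, at 0.00568 to 0.0399 in PKO-1 and −0.102 to −0.0255 in PKO-6 against TM6, 0.0345 to 0.127 in PKO-1 against PKO-6 and −0.0908 to −0.00391 in PKO-6 against rho0. The lowest and highest values for rho0 against TM6 came without TM6 replicates 2 and 1, and those for PKO-1 against rho0 without TM6 replicates 3 and 2. The depth left at least 310 counts for each member in each library, and 3 libraries of 1 clone per line limit the precision.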
